A study of Mus musculus with 5 samples.

Results

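Bone morphogenetic proteins (BMPs) are secreted growth factors of the TGF-beta superfamily. Described here are 10 genes of BMP signalling in newborn mouse atria with and without the cardiac transcription factor Nkx2-5. They were chosen by gene symbol: 6 ligand genes (Bmp2, Bmp4, Bmp5, Bmp6, Bmp7 and Bmp10) and 4 genes widely used as readouts of the pathway (Id1, Id3, Smad6 and Smad7). All 10 were found among the 40624 genes of the deposited table, and all 10 passed the filter on low counts that left 17835 genes for testing. RNA came from atrial tissue of C57BL/6 mice at postnatal day 1 (labelled P1). The 3 control libraries (2, 4 and 6) carried SLN-Cre and Nkx2-5-flox/+, and the 2 mutant libraries (5 and 7) carried SLN-Cre and Nkx2-5-flox/flox. Both groups therefore carried the Cre recombinase, which is expressed from Sln, a gene of atrial muscle cells, and the controls could lose 1 Nkx2-5 allele. The labels do not say whether a library is 1 animal or a pool, so p-values measure only the spread between these libraries, which may be technical.

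In the pathway, a BMP dimer binds type I and type II receptor kinases, which phosphorylate SMAD1, SMAD5 and SMAD9. These join SMAD4 in the nucleus and switch on target genes such as Id1 and Id3, which encode inhibitors of basic helix-loop-helix transcription factors. Smad6 and Smad7 encode inhibitory SMADs, which are induced by the signal and dampen it. In the heart, Bmp2 and Bmp4 are known from the atrioventricular canal and outflow tract, and Bmp10 from trabecular and atrial muscle.

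Libraries held 58.5 to 60.9 M gene counts in the controls and 69.6 and 78.8 M in the mutants. Levels are given in CPM, counts per M after scaling of the library totals. Nkx2-5 itself stood at 71.3 to 76.8 CPM in the controls and at 5.79 CPM in mutant 5 and 5.21 CPM in mutant 7, which matches the labels. The atrial myosin light chain genes Myl7 and Myl4 and 5 other atrial markers summed to 24630 to 26760 CPM in the controls and to 20930 CPM in mutant 5 and 19750 CPM in mutant 7. Only Nppa fell among those 7. The ventricular markers Myl2, Myl3, Irx4 and Hey2 summed to 89.4 to 248 CPM in the controls, with the highest sum in control 6, against 77.4 and 58.3 CPM in the mutants. Hey2 rose by 2.59 on the log2 scale. The other 3 did not pass, Myl3 among them at -2.57 ± 0.47 (SE). The lung marker Sftpc stayed at or below 0.845 CPM in all libraries. In all, 1174 of the 17835 tested genes (6.58%) passed the edgeR test at an adjusted p below 0.05. As shares of all tested genes, 3.02% were higher in mutants and 3.57% lower. Bulk tissue holds many cell types, so fewer cells of a type and less RNA per cell cannot be told apart.

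Promoter sequences are shown for the 3 ligands whose mutant values all lay above the control values (Bmp10, Bmp6 and Bmp4) and for Id3, a target whose groups overlapped. They are the RefSeq bases just before the annotated gene on build GRCm38.p6, and 6 of the 10 genes had an entry (not Bmp2, Bmp7, Id1 or Smad7). Capitals mark CAGAC on either strand, a short form of the SMAD binding element.
Bmp10 (chr6:87428744-87428993, plus strand): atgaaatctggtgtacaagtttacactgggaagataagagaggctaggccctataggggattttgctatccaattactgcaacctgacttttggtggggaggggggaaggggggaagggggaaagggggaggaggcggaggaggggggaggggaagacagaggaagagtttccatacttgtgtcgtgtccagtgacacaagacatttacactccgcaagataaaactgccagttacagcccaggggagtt
Bmp6 (chr13:38345466-38345715, plus strand): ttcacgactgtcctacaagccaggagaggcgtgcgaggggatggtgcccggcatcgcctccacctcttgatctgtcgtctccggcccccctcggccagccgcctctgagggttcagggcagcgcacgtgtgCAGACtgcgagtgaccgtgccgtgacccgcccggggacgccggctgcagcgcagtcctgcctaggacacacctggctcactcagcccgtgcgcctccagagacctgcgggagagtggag
Bmp4 (chr14:46390670-46390919, minus strand): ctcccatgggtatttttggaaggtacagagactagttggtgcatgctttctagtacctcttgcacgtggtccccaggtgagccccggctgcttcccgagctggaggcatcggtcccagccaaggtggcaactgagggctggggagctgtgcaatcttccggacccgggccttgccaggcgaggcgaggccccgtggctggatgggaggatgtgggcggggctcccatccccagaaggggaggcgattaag
Id3 (chr4:136143572-136143821, plus strand): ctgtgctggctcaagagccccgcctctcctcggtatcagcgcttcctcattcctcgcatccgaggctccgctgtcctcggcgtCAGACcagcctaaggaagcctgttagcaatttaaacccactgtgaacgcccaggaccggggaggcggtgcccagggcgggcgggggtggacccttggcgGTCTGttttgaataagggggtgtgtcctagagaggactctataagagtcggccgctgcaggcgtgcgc

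The windows searched, on both strands, ran from 250 bases before to 50 bases after the start that the RefSeq promoter table uses. For Smad6 the annotated gene begins upstream of that start, and 224 bases of its window lie before the gene. CAGAC was found in 2 places in the Id3 window, in 1 place each in the Bmp5 and Bmp6 windows, and not in those of Bmp4, Bmp10 or Smad6. It is common, being present in 49.6% of all 32851 promoter windows of that length. The core of the NKX2-5 binding site, AAGTG, was found in the Smad6 window alone among the 6, against 46.4% of all windows. The GC box GGCGCC, known from BMP-responsive elements, was in none of the 6 windows and in 11.9% of all windows. These matches describe letters in a short window and say nothing of binding.

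The Smad6 window also held the full SMAD palindrome GTCTAGAC, which occurred in 70 of the 32851 windows (0.213%). The site lies within the annotated gene, outside those 224 bases. It shares 1 base with the AAGTG, and both are in capitals in this stretch.
Smad6 (chr9:64022046-64022073, minus strand): ccgccaAAGTGTCTAGACtggcatatga

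Of the ligands, Bmp10 was higher in mutant atria and the other 5 did not pass the test. Bmp4 and Bmp6 also had all mutant values above all control values. None of the 4 target genes passed, and their log2 fold changes lay between -0.05 and 0.16. So 1 of the 10 genes (none lower) passed, where 6.58% of all tested genes did. Bmp4, Bmp6, Bmp10 and Smad6, 4 of the 10, had both mutant values above the controls, against 18.6% of all tested genes, and none had both below, against 19.2%. At an unadjusted p under 0.05, 3 of the 10 passed (Bmp4, Bmp6 and Bmp10), against 20.8% of all tested genes. The log2 fold change was positive for 8 of the 10 (for Id3 only at 0.003, a sign that turned under other scaling), against 51.3%. The median log2 fold change was 0.24 over the 6 ligands and 0.08 over the 4 targets, beside 0.007 over all tested genes.

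**Figure D1:**
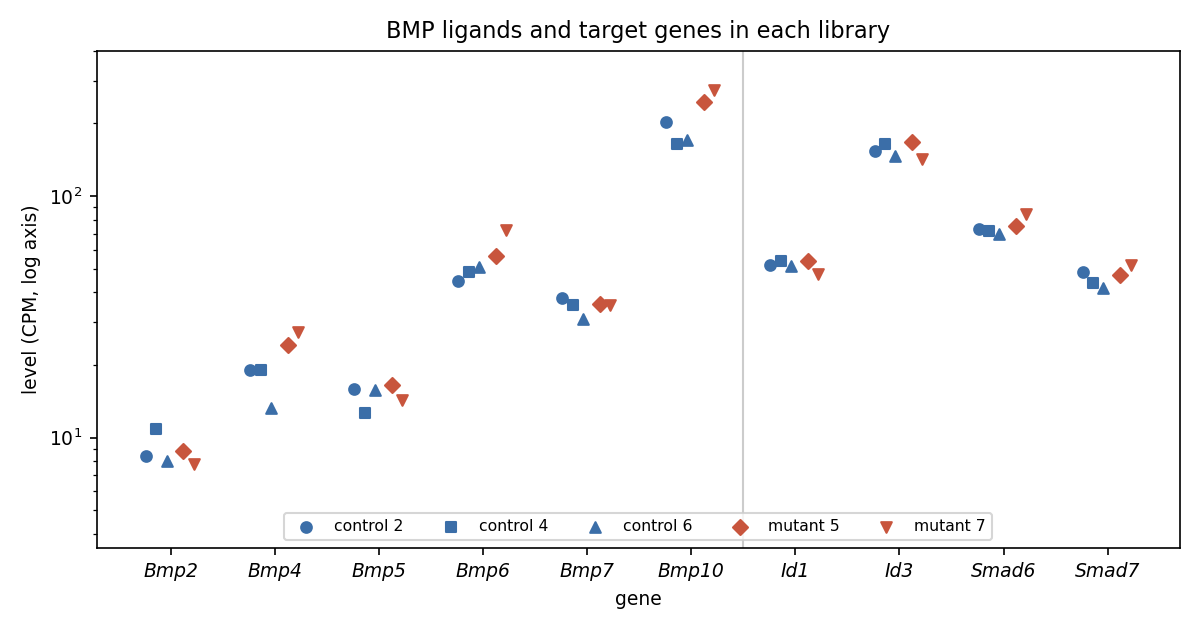
Level of each gene in CPM (log axis) in the 3 control libraries (blue) and the 2 mutant libraries (red), 1 symbol per library; ligands stand left of the grey line and target genes right of it. The mutant points of Bmp4, Bmp6, Bmp10 and Smad6 lie above all 3 control points, while those of the other genes overlap the controls.

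Bmp10 (ENSMUSG00000030046; coding span on chromosome 6, 87379027 to 87384486, mm9) encodes a growth factor secreted by heart muscle that signals to endothelial cells through the receptor ALK1. It measured 203, 165 and 171 CPM in controls 2, 4 and 6, against 245 CPM in mutant 5 and 275 CPM in mutant 7. Each of the 6 ratios of a mutant to a control library was above 1, from 1.21 to 1.66. The control mean was 180 ± 20.3 CPM (SD, n = 3) and the mutant mean 260 ± 21.2 CPM (SD, n = 2), a 1.44-fold rise and a log2 fold change of 0.53 ± 0.10 (SE). In edgeR's quasi-likelihood test its Benjamini-Hochberg adjusted p was 0.0185. The call was lost without control 4, control 6 or mutant 7 (adjusted p = 0.0724, 0.0713 and 0.1, edgeR), at log2 fold changes of 0.47, 0.50 and 0.44. The authors' deposited table gives Bmp10 a log2 ratio of 0.50 with an adjusted p of 0.0113.

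Bmp4 (ENSMUSG00000021835; coding span on chromosome 14, 47003534 to 47005762, mm9) encodes a ligand close in sequence to BMP2. Its level was 19.0, 19.1 and 13.3 CPM in controls 2, 4 and 6 and 24.2 CPM in mutant 5 and 27.4 CPM in mutant 7. The mutants were above all controls, and control 6 stood apart below controls 2 and 4. The log2 fold change of 0.59 ± 0.16 (SE) was the largest point estimate of the 10 genes, with a 95% interval of 0.20 to 0.98. It did not pass edgeR's test (adjusted p = 0.09), but it passed DESeq2 (adjusted p = 0.00782). DESeq2 called 11.4% of the genes it tested, against 6.58% with edgeR. The authors' deposited table gives Bmp4 an adjusted p of 0.005 at a log2 ratio of 0.57. Without control 6 the log2 fold change was 0.44, with an adjusted p of 0.0553 in edgeR. The 6 smooth muscle and pericyte markers summed to 333, 461.5 and 352 CPM in controls 2, 4 and 6, against 508 CPM in mutant 5 and 594.5 CPM in mutant 7. All 6 had a positive log2 fold change and none passed edgeR's test. Among them Myh11, the smooth muscle myosin gene, was lowest in control 6 (2.03 CPM, against 6.51 and 9.14 CPM in the other controls) and reached 29.7 and 27.7 CPM in the mutants. Pdgfrb and Rgs5 were also lowest in control 6, while Tagln and Cnn1 were lowest in control 2 and Cspg4 in mutant 5. The 5 atrioventricular canal and valve markers summed to 86.2 to 101.2 CPM in the controls, against 97.5 and 108 CPM in the mutants, so the groups overlapped and none passed. Tbx3 alone of these 5 was lowest in control 6 of the 5 libraries. The part of these markers in the Bmp4 result was not tested. Bmp4 shares 89 exonic bases with Gm15217 on the opposite strand, which had at most 10 counts per library.

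Bmp6 (ENSMUSG00000039004; coding span on chromosome 13, 38437802 to 38590937, mm9) encodes a ligand of the BMP5, BMP6 and BMP7 branch, known for inducing the iron hormone hepcidin. It measured 44.7, 48.6 and 51.0 CPM in controls 2, 4 and 6, against 56.4 CPM in mutant 5 and 72.8 CPM in mutant 7. Both mutants were above the controls, with mutant 7 well above mutant 5. The log2 fold change of 0.42 ± 0.11 (SE) did not pass edgeR's test (adjusted p = 0.0667). The authors' deposited table gives Bmp6 a log2 ratio of 0.39 with an adjusted p of 0.213. In the fits made here, the log2 fold change of Bmp6 passed with DESeq2 (adjusted p = 0.0101) and with no filter on low counts (0.0255, edgeR). It also passed without mutant 5 (0.60, adjusted p = 0.00566, edgeR), and without mutant 7 it was 0.23 with an adjusted p of 0.229. The endothelial genes Cdh5, Kdr and Flt1 shared the high value of mutant 7. Pecam1 (293 and 324 CPM), Tie1 (320 and 358 CPM) and Egfl7 (173 and 189 CPM) lay closer together in mutants 5 and 7. Tek was at 179 CPM in mutant 5, below the controls (187 to 204 CPM), and at 213 CPM in mutant 7. Emcn hardly differed between the mutants (191 and 196 CPM), and Npr3 was highest in control 6 with a log2 fold change of -0.06. Cdh5, the gene of vascular endothelial cadherin, stood at 230 to 233 CPM in the controls, 273 CPM in mutant 5 and 392 CPM in mutant 7. The 9 endothelial and endocardial markers summed to 1802 to 1979 CPM in the controls and to 2003 CPM in mutant 5 and 2420 CPM in mutant 7. Of these, 1 rose (Tie1) and 8 did not pass, and their part in the Bmp6 value was not tested. Bmp6 shares 224 exonic bases with Txndc5 on the opposite strand, which had 16686 to 22442 counts per library, and the sources used here do not state if reads were counted by strand.

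The remaining 3 ligands overlapped between the groups. Bmp7 (ENSMUSG00000008999; chromosome 2, 172695638 to 172765570, mm9), the relative of Bmp6, measured 37.9, 35.5 and 31.0 CPM in controls 2, 4 and 6, against 35.8 CPM in mutant 5 and 35.5 CPM in mutant 7. Both mutant values lay within the control range. Bmp5 (ENSMUSG00000032179; chromosome 9, 75623900 to 75746389, mm9) measured 15.8, 12.6 and 15.8 CPM in the controls, against 16.5 and 14.3 CPM in the mutants. Bmp5 shares 1878 exonic bases with Gm26903 on the opposite strand, which leaves its value uncertain. Bmp2 (ENSMUSG00000027358; chromosome 2, 133380162 to 133387451, mm9), which marks the atrioventricular canal muscle, was the lowest ligand in CPM, at 8.41, 10.8 and 7.99 CPM in the controls and 8.78 and 7.78 CPM in the mutants. Control 4 was high for Bmp2 and the other 4 libraries were alike. The 95% intervals of the log2 fold change were -0.18 to 0.25 for Bmp7, -0.22 to 0.35 for Bmp5 and -0.48 to 0.22 for Bmp2, so a change the size of that of Bmp10 (0.53) lies outside all 3. The sign of each of the 3 changes turned when 1 library was left out.

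**Figure D2:**
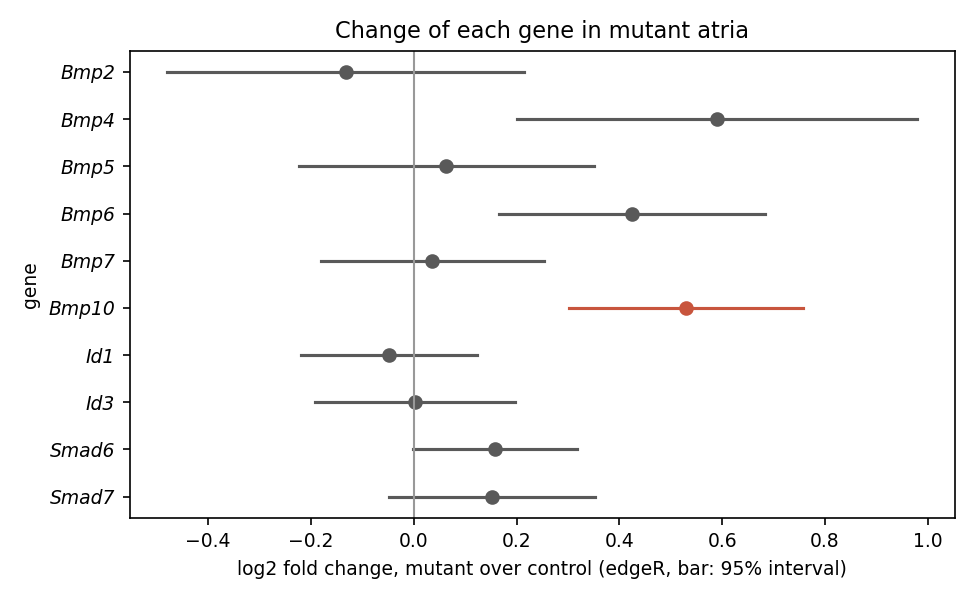
Log2 fold change of each gene, mutant over control, with its 95% interval from edgeR; the gene past an adjusted p under 0.05 is red. Bmp10 stands at 0.53 with an interval of 0.30 to 0.76, Bmp4 and Bmp6 have intervals above 0 without passing the adjusted threshold, and the intervals of the other 7 genes include 0.

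Id1 and Id3 overlapped between the groups. Id1 (ENSMUSG00000042745; chromosome 2, 152562077 to 152562749, mm9) measured 52.0, 54.0 and 51.5 CPM in controls 2, 4 and 6, against 53.8 CPM in mutant 5 and 47.8 CPM in mutant 7. The controls were close together, and mutant 7 was the lowest library. The log2 fold change was -0.05 ± 0.08 (SE), with a 95% interval of -0.22 to 0.12 and an adjusted p of 0.787 (edgeR). Id3 (ENSMUSG00000007872; chromosome 4, 135699794 to 135700268, mm9) measured 153, 165 and 147 CPM in the controls, against 168 and 143 CPM in the mutants. Here the mutants were the highest and the lowest of the 5 libraries. Its 95% interval was -0.19 to 0.20 (adjusted p = 0.99, edgeR). The ratio of Id3 to Id1 per gene length was 1.74 to 1.87 in the controls and 1.91 and 1.83 in mutants 5 and 7, so the pair kept a similar ratio in all libraries.

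The inhibitory SMAD genes leaned upward without passing. Smad6 (ENSMUSG00000036867; chromosome 9, 63801331 to 63868831, mm9), whose product acts mainly on BMP receptors and whose window holds the SMAD palindrome shown above, measured 73.3, 71.9 and 69.8 CPM in controls 2, 4 and 6, against 75.4 CPM in mutant 5 and 84.5 CPM in mutant 7. The groups did not overlap, but mutant 5 was 1.03 times control 2. Its log2 fold change was 0.16 ± 0.07 (SE), with a 95% interval of -0.0022 to 0.32 and an adjusted p of 0.248 (edgeR). Smad7 (ENSMUSG00000025880; chromosome 18, 75528610 to 75554019, mm9), whose product inhibits both TGF-beta and BMP receptors, measured 48.5, 43.9 and 41.5 CPM in the controls, against 47.2 and 52.0 CPM in the mutants. Mutant 5 lay below control 2, so the groups overlapped, and the adjusted p was 0.381 (edgeR) at a log2 fold change of 0.15 ± 0.09 (SE). Both Smad6 and Smad7 were highest in mutant 7, as were Bmp4, Bmp6 and Bmp10, while Id1 and Id3 were lowest in mutant 7. The endothelial and endocardial marker sum was also highest in mutant 7 (2420 CPM), and its part in the Smad6 and Smad7 values was not tested. None of the 4 targets passed under any of the 12 alternative settings tried; the smallest adjusted p among these was 0.0729, for Smad6.

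Levels can be compared between genes only per length, so CPM was divided by the deposited gene length in kilobases. On this scale Bmp10 was the highest ligand in every library, at 154, 125.5 and 130 in controls 2, 4 and 6, 186 in mutant 5 and 209 in mutant 7. Bmp6 followed at 10.2 to 11.6 in controls, against 12.8 and 16.55 in mutants. Bmp7 came next in every library, at 7.71 to 9.42, and in control 2 it lay close below Bmp6 (9.42 against 10.2). Bmp4 stood at 3.83 to 5.53 in controls, against 6.995 and 7.91 in mutants. Bmp5 and Bmp2 were lowest, at 2.99 to 3.93 and 2.19 to 3.045, and in control 4 Bmp2 lay above Bmp5. Summed over the 6 ligands, the level was 185, 157 and 159 in controls 2, 4 and 6, against 221 in mutant 5 and 247.5 in mutant 7. Bmp10 made up 80.0% to 83.2% of that sum in the controls and 84.1% and 84.3% in mutants 5 and 7. Without Bmp10 the sum was 29.1 to 31.4 in controls, against 35.1 and 38.9 in mutants. The deposited length of Bmp10 is 1317 bases, the shortest of the ligands, and the shares depend on it. The authors' deposited table gives Bmp10 127 RPKM in controls and 180 RPKM in mutants.

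**Figure D3:**
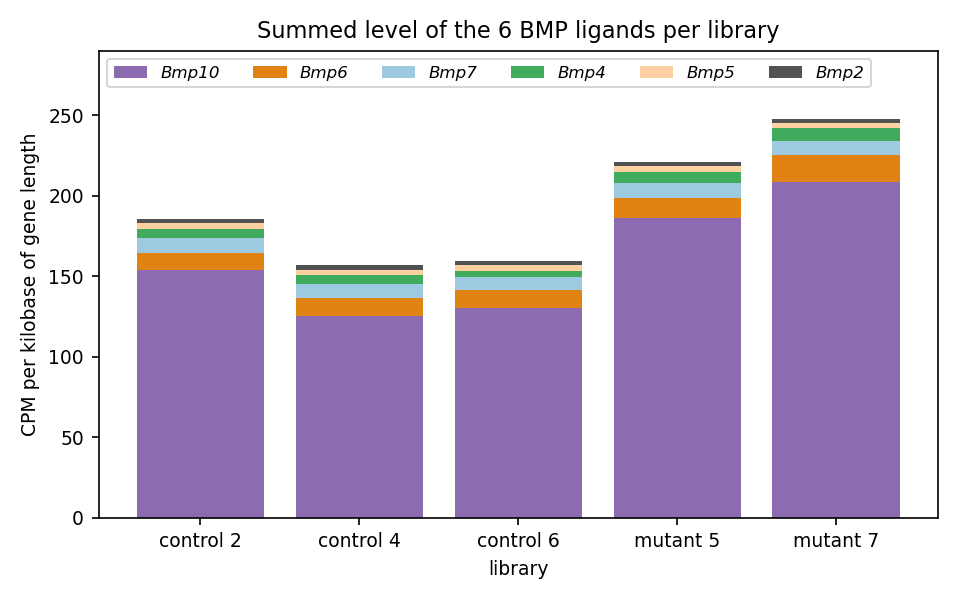
Stacked level of the 6 ligand genes in each library, in CPM per kilobase of deposited gene length. The sums are 157 to 185 in controls, against 221 and 247.5 in mutants, and Bmp10 (purple) is the largest segment of every bar.

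The 3 tested genes whose pattern over the 5 libraries was closest to that of Bmp10 were Jazf1, Bhlhe41 and Odz3, out of 13233 compared. Closeness was the root mean square difference in log2 CPM after centring each gene on its own mean, which was 0.020, 0.029 and 0.037. All 3 were at or above 10.97 CPM in every library, and all 3 passed edgeR's test at log2 fold changes of 0.51 to 0.55. They were picked for closeness to Bmp10 over these same 5 libraries. Fold changes near that of Bmp10 therefore follow from the choice and are no separate result.

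Other genes of the pathway were read from 7 lists holding 72 tested genes, of which 5 were higher and 11 lower in mutant atria. The lists follow the signal from ligand to target, and their change is set beside the 3.02% higher and 3.57% lower of all tested genes. Of 10 other tested BMP and GDF ligands, 2 fell and 8 did not pass (list median -0.45). Gdf2, which encodes BMP9, the other known ligand of ALK1 beside BMP10, measured 4.05, 2.50 and 1.90 CPM in controls 2, 4 and 6, against 1.06 CPM in mutant 5 and 0.952 CPM in mutant 7. On the log2 scale it fell by 1.48 ± 0.33 (SE), opposite in direction to Bmp10. The call was lost without control 2, control 4, mutant 5 or mutant 7 (edgeR adjusted p up to 0.162), with limma-voom (0.0717) and with library sex as a covariate (0.0841), so Gdf2 passed in 6 of 12 alternatives. Gdf10, also called BMP3b, fell by 0.92 ± 0.18, and lost its call without control 2, control 4 or mutant 7 (edgeR adjusted p up to 0.0925).

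Of 4 enzyme genes that cleave BMP precursors, only Furin rose. It measured 153, 149 and 138 CPM in the controls, against 183 CPM in mutant 5 and 214 CPM in mutant 7, a log2 fold change of 0.44 ± 0.08 (SE). Its call was lost when any single control, or mutant 7, was left out (edgeR adjusted p up to 0.0718). Pcsk6, next in the list by p, had a log2 fold change of 0.10 ± 0.13.

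Among 13 receptors and co-receptors, 1 rose, 1 fell and 11 did not pass (list median -0.16). Eng, the gene of endoglin, an endothelial co-receptor that binds BMP9 and BMP10, measured 547, 567 and 576 CPM in controls 2, 4 and 6, against 707 CPM in mutant 5 and 757 CPM in mutant 7. Both mutants were above all controls, and the log2 fold change was 0.38 ± 0.07 (SE; adjusted p = 0.0185, edgeR). This call was lost when any single control was left out (edgeR adjusted p up to 0.105). The endothelial marker sums given beside Bmp6 were also higher in both mutants, and their part in the Eng result was not tested. Bmpr1b, a type I receptor gene of low level here, fell by 1.31 ± 0.23 on the log2 scale, from 2.05 to 2.68 CPM in the controls to 0.961 CPM in mutant 5 and 0.879 CPM in mutant 7. It lost its call without control 2 or mutant 7 (edgeR adjusted p up to 0.0603). The ALK1 gene Acvrl1 stood at 27.9 to 30.1 CPM in the controls and at 29.3 CPM in mutant 5 and 34.4 CPM in mutant 7, and did not pass (adjusted p = 0.444, edgeR).

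None of the 4 SMAD signal transducers passed edgeR's test, though all 4 had a positive log2 fold change (list median 0.19). Smad9 and Smad1 had the smallest p-values, with log2 fold changes of 0.30 ± 0.11 (SE; adjusted p = 0.155) and 0.23 ± 0.08 (adjusted p = 0.126). The 8 intracellular inhibitors, including the pseudoreceptor gene Bambi and the ubiquitin ligase genes Smurf1 and Smurf2, had a median of -0.03 and none passed. Their smallest p-values were those of Skil, at 0.21 ± 0.11, and Smurf2, at 0.07 ± 0.07.

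The extracellular antagonists and modulators held the most calls, with 7 of 20 tested members lower, 1 higher and 12 not passing (list median -0.47). Chrd, the gene of the BMP antagonist chordin, measured 8.23, 8.08 and 8.04 CPM in controls 2, 4 and 6, against 4.36 CPM in mutant 5 and 4.13 CPM in mutant 7. On the log2 scale it fell by 0.94 ± 0.12 (SE; adjusted p = 0.00365, edgeR). Chrd shares 239 exonic bases with Thpo on the opposite strand, which had at most 32 counts per library. Tll1, a tolloid protease gene whose product cuts chordin, fell by 1.07 ± 0.09, from 24.6 to 27.5 CPM in the controls to 12.3 and 12.8 CPM in the mutants. The chordin-like gene Chrdl1 fell by 1.44 ± 0.19. Twsg1, whose product binds both BMPs and chordin, fell by 0.49 ± 0.07, from 186 to 201 CPM in the controls to 138 and 136 CPM in the mutants. The DAN family antagonist gene Nbl1 fell by 0.69 ± 0.11. These 5 falls passed whichever single library was left out. The 5 do not all act one way on BMP, since chordin, chordin-like 1 and the DAN protein bind the ligands while tolloid frees them.

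The other 2 falls of that list were Vwc2, an antagonist gene, by 1.47 ± 0.26 (SE) on the log2 scale, and Htra1, a secreted protease gene, by 0.45 ± 0.09. Vwc2 lost its call without mutant 7 (adjusted p = 0.073, edgeR), and Htra1 without control 2, control 4 or mutant 7 (highest 0.0983) or with sex as a covariate (0.0543). Sost, which encodes sclerostin, a DAN family protein best known as a Wnt antagonist, was the single rise. It measured 14.04, 14.7 and 10.4 CPM in controls 2, 4 and 6, against 24.5 CPM in mutant 5 and 39.2 CPM in mutant 7. The rise, 1.29 ± 0.24 on the log2 scale, lost its call when any single control, or mutant 7, was left out (edgeR adjusted p up to 0.16). It was also lost with no filter on low counts (adjusted p = 0.14, edgeR), with limma-voom (0.0597) and with sex as a covariate (0.092), so Sost passed in 5 of 12 alternatives. The count of 7 lower members was 5 without mutant 7 and 6 to 8 without any other library. The classical antagonist gene Nog stood at 0.656 CPM or less in all libraries and did not pass, and Grem1, with at most 10 counts per library, was not tested.

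Some markers of connective tissue and most of those of epicardium were also lower in mutants. The 8 fibroblast markers summed to 10640 to 12100 CPM in the controls and to 8468 CPM in mutant 5 and 8628 CPM in mutant 7. Of these, 3 were lower (Lum, Dcn and Col3a1) and 5 did not pass. Col3a1, Col1a1 and Col1a2 held most of that sum, with control means of 4149, 2323 and 2144 CPM. Tcf21, Postn and Pdgfra had log2 fold changes of -0.15, -0.11 and -0.25, and Postn and Pdgfra overlapped between the groups. The 6 epicardial markers summed to 1022 to 1191 CPM in the controls and to 700 and 704 CPM in the mutants, with 5 lower and 1 not passing. None of the 14 markers had a positive log2 fold change, and their part in the falls of the antagonist genes was not tested.

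**Figure D4:**
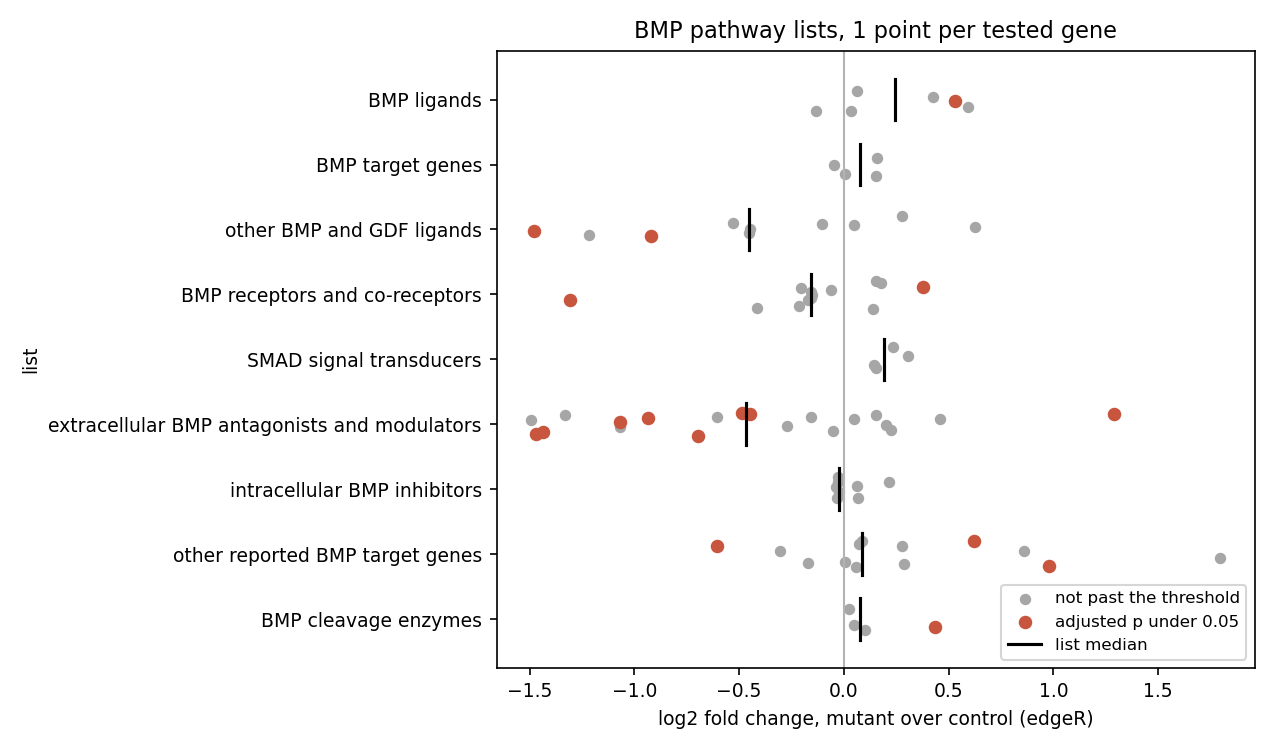
Log2 fold change of each tested gene in the 9 lists of BMP genes, 1 point per gene (red: adjusted p under 0.05; black bar: list median). The extracellular antagonists and modulators hold 7 of the red points below 0, and the 4 target genes Id1, Id3, Smad6 and Smad7 lie close to 0.

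Beyond Id1, Id3, Smad6 and Smad7, 13 tested genes reported as BMP targets were mixed, with 2 higher, 1 lower and 10 not passing (list median 0.09). Id2, the relative of Id1 and Id3, measured 99.0, 112 and 114 CPM in controls 2, 4 and 6, against 111 CPM in mutant 5 and 107 CPM in mutant 7, within the control range. Hamp, the gene of hepcidin, which BMP6 induces in the liver, measured 6.72, 5.66 and 4.26 CPM in the controls, against 10.3 and 11.6 CPM in the mutants. It rose by 0.98 ± 0.18 (SE) on the log2 scale, a call lost without control 4 or mutant 7 (edgeR adjusted p up to 0.0827). The T-box gene Tbx20 rose by 0.62 ± 0.09 and the repressor gene Hey1, which is also a Notch target, fell by 0.60 ± 0.08. Both calls held whichever single library was left out. Of the 13 genes, 10 had a positive log2 fold change, beside 51.3% of all tested genes, so they did not all share a direction.

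**Figure D5:**
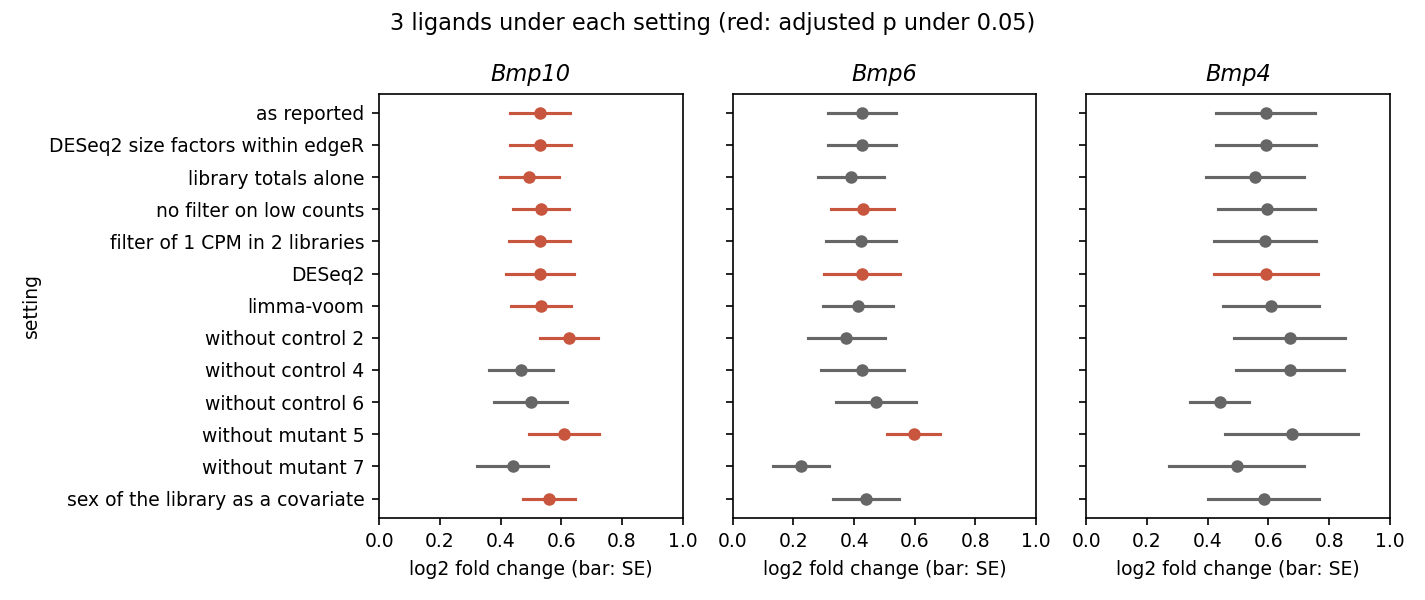
Log2 fold change with its SE for Bmp10, Bmp6 and Bmp4 as reported and under each of 12 alternative settings (red: adjusted p under 0.05). All estimates are above 0; Bmp10 passes in 9 of the 12 alternatives, Bmp6 in 3 and Bmp4 in 1.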

How the data were processed

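RNA was measured in 5 libraries of newborn mouse atria, made from 250 ng of total RNA each with the TruSeq kit, per the labels' protocols. The deposited values used here are raw counts of reads for each gene. The submitters' processing notes name mm9 as build, and TopHat2 2.0.4, DESeq and HTSeq 0.5.4p3 without their roles. The deposited table also holds 1 RPKM value per group, a log2 ratio and p-values by the authors, and a gene length. Entries for reads without a gene (3.97% to 6.03% of counts) or with several (2.31% to 3.18%) were left out here.

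Analysis used edgeR 4.0.16 (R 4.3.3): filterByExpr defaults (minimum count 10, minimum total 15), TMM scaling, and the robust quasi-likelihood test, two-sided, with Benjamini-Hochberg adjustment over the 17835 tested genes at 0.05. The prior count was 0.125. Standard errors were obtained from the fold change and F (their ratio, with F under the root), and 95% intervals use edgeR's total degrees of freedom. An exact permutation test of 3 against 2 libraries cannot go below p = 0.1. The script was tested on simulated counts. The genes and lists were chosen with earlier results of these data known. Named were the 10 genes, Nkx2-5, every other pathway gene that passed (or the 2 with the smallest p where fewer than 2 of a list did), and the 3 nearest patterns to the gene of smallest p; further genes named as context (Id2, Nog, Grem1, Acvrl1, Bambi, Smurf1, Tbx3 and cell type markers) were chosen after their values were seen. Alternatives were DESeq2 size factors, library totals, no filter, a filter of 1 CPM in 2 libraries, DESeq2 1.42.0, limma-voom (limma 3.58.1), each library left out, library sex as a covariate (read from Xist and Ddx3y, 1 male library per group) and, for counts of calls, a threshold of 0.01. Shared exonic bases come from GENCODE vM21, used only for names, overlaps and a check of coding span lengths. Listed coordinates in mm9 are coding spans, apart from those of Smad6. Its listed span is 67500 bases, against a coding span of 68505 bases in GENCODE vM21.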

Additional observations from a re-analysis of the deposited data

How the results depend on the processing

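No paired analysis was possible because the groups share no replicate number. With DESeq2, 924 genes were higher and 1032 lower; at a threshold of 0.01 the counts were 157 and 234, and leaving out 1 library gave 203 to 910 higher and 306 to 804 lower. Of the 10 BMP genes, 2 were higher with no filter (Bmp10 and Bmp6), 3 with DESeq2 (also Bmp4), 0 at a threshold of 0.01, and 0 to 2 without 1 library. None was lower in any setting. Of all tested genes, DESeq2 called 1956 of 17154 (11.4%). The edgeR fit with no filter called 742 higher and 812 lower of 25941 tested genes. For the 72 other pathway genes a threshold of 0.01 gave 1 higher and 6 lower, and leaving out 1 library gave 1 to 7 higher and 6 to 11 lower. Bmp10 had log2 fold changes of 0.44 to 0.63 without 1 library and passed in 9 of 12 alternatives. Without a mutant library, the lone one left is assumed to vary like the controls. The genes near 0 below changed sign without passing. Without 1 library Bmp2 ranged from -0.22 to 0.0082 (without control 4), Bmp5 from -0.049 (without mutant 5; -0.04 without control 4) to 0.16, Bmp7 from -0.039 (without control 6) to 0.10, Id1 from -0.14 to 0.030 (without mutant 7) and Id3 from -0.12 to 0.11. Id3 was also -0.032 with library totals alone and -0.030 with sex as a covariate. Pcsk6 ranged from -0.024 (without control 6) to 0.18. The causes were not tested. At these depths the lowest ligand, Bmp2, rests on 492 to 685 counts per library.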
